A study of Homo sapiens with 6 samples.

Results

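The genes described here carry out sterol synthesis, sterol uptake and transport inside the cell, and the control of SREBP2, the transcription factor that switches sterol genes on. They are 30 genes named by symbol: 19 enzymes, 6 genes of SREBP2 and its control, and 5 genes of sterol transport and esterification. Rows were taken by symbol, with an older symbol allowed, and 29 of the 30 were found among 17990 genes. All 29 averaged 20 counts or more per library, as did 11916 genes in all. SC4MOL and SC5DL are older symbols of MSMO1 and SC5D. MBTPS1, the first of the proteases that cut SREBP2, had no row under its symbol and is not counted.

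The RNA came from LNCaP, an androgen-responsive human prostate cancer cell line. All cells had first been kept for 3 days in medium with charcoal-stripped serum, which is poor in hormones and also in lipids. There were 6 libraries: 1 of untreated cells (0 h) and 1 each of cells given 10 nM dihydrotestosterone (DHT), the potent natural androgen, for 3, 6, 12, 24 and 48 h. The series asks which transcripts androgen regulates.

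No group had a replicate, so no difference could be compared with replicate error and no test was made. DHT and time in culture cannot be told apart, because untreated cells stand only at 0 h. All ratios to 0 h share that library. Totals ran from 13179917 to 20587956 counts. Levels are in CPM (the count scaled to a common total of 1000000 over the listed transcripts), and ratios carry 95% intervals that cover counting error only. A gene was called higher or lower past 2-fold on the log2(CPM + 1) scale, and "rose" and "fell" are used below only of such genes. Values at 12 h of genes on chromosome 4, here SC4MOL, are not used. Of the 7 markers of luminal prostate cells all were present, with summed levels of 8041 to 23170 CPM. Summed levels were at most 0.895 CPM for 3 basal and 0.152 CPM for 3 leukocyte markers. The 4 fibroblast markers summed to 32.0 to 69.9 CPM, of which COL1A1 gave 31.2 to 64.3 CPM and COL3A1 0.729 to 5.31 CPM, and COL1A2 and DCN were at most 0.379 CPM. In bulk RNA, fewer cells that express a gene and less RNA per cell cannot be told apart.

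Cholesterol is built from acetyl-CoA through mevalonate, isoprenoid diphosphates, squalene and lanosterol. SREBP2 is held in the endoplasmic reticulum with its escort SCAP by the INSIG proteins while membrane sterol is plentiful. When sterol falls, SCAP carries SREBP2 to the Golgi, where a pair of proteases releases the part that enters the nucleus. There it binds sterol regulatory elements, usually together with the CCAAT-binding factor NF-Y and with Sp1. Prostate cancer cells are known for an active lipid synthesis that androgens raise.

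The promoters of 5 genes with 1 start site each are shown. STARD4 and INSIG1 had the highest ratios at 48 h, SC4MOL rose after 6 h, and TM7SF2 was the gene that fell. SREBF2 encodes SREBP2 itself and was the gene that held the sterol element core. IDI1, HMGCS1 and SC5DL had higher 48 h ratios than SC4MOL, but had more than 1 start site and are not shown. Each run is the 250 bases upstream of the gene's annotated start, from RefSeq on GRCh38.p14, 5′ to 3′ along the gene. Capitals mark the NF-Y box (CCAAT, or ATTGG on the other strand) and, in SREBF2, the sterol element core.
STARD4 (chr5:111512536-111512785, minus strand): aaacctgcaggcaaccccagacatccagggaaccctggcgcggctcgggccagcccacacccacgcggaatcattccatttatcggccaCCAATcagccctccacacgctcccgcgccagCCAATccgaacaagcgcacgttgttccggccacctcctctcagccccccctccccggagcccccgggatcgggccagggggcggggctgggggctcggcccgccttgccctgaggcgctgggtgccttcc
INSIG1 (chr7:155297628-155297877, plus strand): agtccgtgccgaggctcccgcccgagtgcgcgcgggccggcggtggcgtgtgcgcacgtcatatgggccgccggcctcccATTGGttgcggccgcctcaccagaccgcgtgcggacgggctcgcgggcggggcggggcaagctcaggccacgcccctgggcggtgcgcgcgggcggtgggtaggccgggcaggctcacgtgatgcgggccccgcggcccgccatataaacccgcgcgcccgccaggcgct
SC4MOL (chr4:165327419-165327668, plus strand): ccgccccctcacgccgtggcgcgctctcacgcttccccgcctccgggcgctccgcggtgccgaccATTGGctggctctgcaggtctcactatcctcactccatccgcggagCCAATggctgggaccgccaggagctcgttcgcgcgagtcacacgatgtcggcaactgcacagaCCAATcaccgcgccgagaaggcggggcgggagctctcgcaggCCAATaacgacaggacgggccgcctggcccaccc
SREBF2 (chr22:41832855-41833104, plus strand): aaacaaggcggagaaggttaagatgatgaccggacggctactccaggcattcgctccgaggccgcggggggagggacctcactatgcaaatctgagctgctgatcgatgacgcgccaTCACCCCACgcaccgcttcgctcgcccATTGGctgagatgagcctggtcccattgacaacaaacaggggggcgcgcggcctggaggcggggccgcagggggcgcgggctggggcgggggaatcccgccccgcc
TM7SF2 (chr11:65111622-65111871, plus strand): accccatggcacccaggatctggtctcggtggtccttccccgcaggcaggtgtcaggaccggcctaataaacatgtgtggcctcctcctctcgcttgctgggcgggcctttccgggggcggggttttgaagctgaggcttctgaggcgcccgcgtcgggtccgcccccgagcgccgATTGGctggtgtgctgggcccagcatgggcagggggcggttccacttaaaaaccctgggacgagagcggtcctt
SC4MOL held 4 NF-Y boxes in this window, STARD4 2, and INSIG1, SREBF2 and TM7SF2 1 each.

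Promoters were given for 26 of the 29 genes, with 35 start sites. A gene was counted when any of its start sites held the letters on either strand. The NF-Y box was found in 20 of the 26 (76.9%), against 42.3% of the 9336 measured genes with a promoter and 37.0% of all 27305. At least 2 boxes at a single start site were found in 12 (46.2%), against 15.9% of measured genes. Start sites per gene were 1.35 in these genes and 1.46 in measured genes. The Sp1 box GGGCGG was found in 24 (92.3% against 74.98%). The sterol element core TCACNCCAC was found in SREBF2 alone (3.85% against 1.18%), 125 to 133 bases upstream of its start. The androgen receptor half-site AGAACA was found in PMVK alone (3.85% against 10.99%). Boxes on both strands may overlap, as in IDI1. A match is a description of letters, and no match says only that these letters are not in the window. Genes that rose and genes that did not both held NF-Y boxes: MVK and NSDHL, which stayed within 2-fold at every time, had 5 each at their start sites.

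At 3 h none of the 29 genes had passed 2-fold, and 0.747% of all measured genes were higher and 0.864% lower. At 6 h 6 were higher and 0 lower, against 15.3 and 3.01% of all genes. At 12 h 11 of 28 were higher and 0 lower, against 11.4 and 5.32% of genes outside chromosome 4 (11.6 and 3.88% with chromosome 15, which holds none of the 29, and unplaced genes also left out). At 24 h 11 were higher and 0 lower, against 10.5 and 10.8% of all genes (13.3 and 8.54% with TMM scaling, under which 15 of the 29 were higher). At 48 h 14 were higher and 1 lower, against 15.03 and 7.33%. The median log2 changes of the 29 genes were 0.15, 0.22, 0.67, 0.89 and 0.94 in the order of time. Medians of all measured genes were -0.08, 0.08, 0.06, -0.09 and -0.06, and at 24 h 0.04 with TMM scaling. From 12 h on the share of these genes that rose was above that of all genes, while at 6 h 6 of 29 stood near it.

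**Figure D1:**
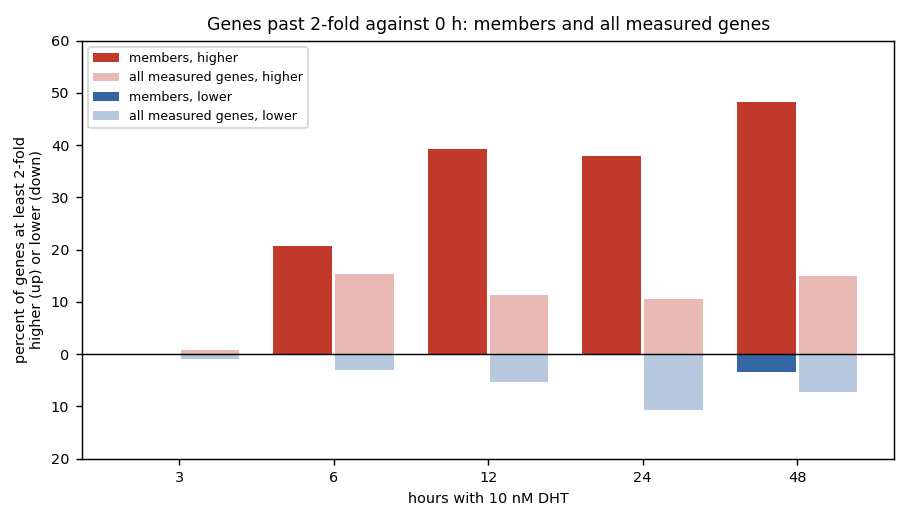
Percent of genes at least 2-fold higher (upward bars, red) or lower (downward bars, blue) than at 0 h, by hours with DHT, for the 29 genes (dark) and all measured genes (pale), with SC4MOL and other chromosome 4 genes left out at 12 h. The dark and pale upward bars are close at 6 h and far apart at 12, 24 and 48 h, when 11, 11 and 14 genes were higher.

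In the mevalonate arm, HMG-CoA synthase and the isopentenyl diphosphate isomerase rose most, and the kinases and decarboxylase between them did not pass 2-fold. Of the 8 genes 2 were higher at 6 h, 4 at 12 h, 2 at 24 h and 3 at 48 h, and none was lower at any time. Of all genes 15.3, 11.4 (outside chromosome 4), 10.5 and 15.03% were higher at these times, and 3.01, 5.32, 10.8 and 7.33% lower. No difference from these shares was tested. HMGCS1, which makes HMG-CoA, read 31.6, 38.3, 94.6, 176, 213 and 242 CPM from the 0 h to the 48 h library. The first pair of libraries was low and each later one was higher than the one before. Its ratio to 0 h was 2.99 (2.67 to 3.35) at 6 h and 7.63 (6.90 to 8.47) at 48 h.

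IDI1, the isomerase that readies isoprene units for joining, read 16.6, 16.9, 55.4, 103, 111 and 172 CPM. Its 48 h ratio of 10.4 (9.02 to 12.0) was the highest of the 19 enzymes. GGPS1, which makes the geranylgeranyl diphosphate used to anchor proteins in membranes, read 47.5, 40.0, 83.4, 96.6, 94.0 and 111 CPM, a 48 h ratio of 2.34 (2.13 to 2.57). ACAT2, the cytosolic thiolase that starts the pathway, read 33.5, 44.3, 52.9, 72.2, 66.0 and 52.9 CPM. It passed 2-fold at 12 h alone, with a ratio of 2.15 (1.92 to 2.41), an interval that spans 2. At 24 h it stood just short, at 1.97 (1.77 to 2.20). That 24 h change was past 2-fold with TMM or median-of-ratios scaling, or with the trend on GC content over all genes subtracted. By 48 h the ratio was back at 1.58 (1.40 to 1.78).

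FDPS, the farnesyl diphosphate synthase, read 139, 164, 116, 162, 198 and 243 CPM and stayed under 2-fold, with 1.75 (1.66 to 1.85) at 48 h. With the trend on GC content over all genes subtracted it was past 2-fold at 48 h (log2 change 1.19). Mevalonate kinase MVK read 28.6, 40.4, 27.9, 41.7, 32.8 and 40.1 CPM, and the decarboxylase MVD 31.9, 31.3, 25.2, 33.2, 26.4 and 34.03 CPM. Neither followed a steady course. The phosphomevalonate kinase PMVK read 92.4, 102, 71.6, 71.5, 65.6 and 58.9 CPM, a 48 h ratio of 0.637 (0.584 to 0.695) that stayed within 2-fold. Reads of FDPS may be shared with its pseudogenes, those of IDI1 with the related IDI2, and those of ACAT2 with TCP1, which overlaps its end on the other strand, since the use of strand is not given.

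Of the 3 genes from squalene to lanosterol, 2 were past 2-fold at each of 12, 24 and 48 h: FDFT1 and SQLE at 12 and 24 h, FDFT1 and LSS at 48 h. Of all genes 11.4 (outside chromosome 4), 10.5 and 15.03% were higher at these times. Squalene synthase FDFT1, which commits farnesyl units to sterols, read 213, 267, 267, 511, 549 and 791 CPM. Its ratio was 2.57 (2.47 to 2.68) at 24 h and 3.71 (3.56 to 3.87) at 48 h. In CPM it was the enzyme with the most counts at 48 h, and all libraries from 12 h on lay above the earlier ones. Squalene epoxidase SQLE read 33.5, 33.2, 40.6, 72.4, 71.0 and 65.2 CPM. It stood at 2.12 (1.90 to 2.36) at 24 h and at 1.94 (1.74 to 2.18) at 48 h, just short of 2-fold. LSS, which closes the rings to lanosterol, read 115, 119, 108, 142, 186 and 271 CPM and passed 2-fold at 48 h alone, with 2.36 (2.22 to 2.50). With the trend on GC content over all genes subtracted it was past 2-fold at 24 h too (log2 change 1.16).

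**Figure D2:**
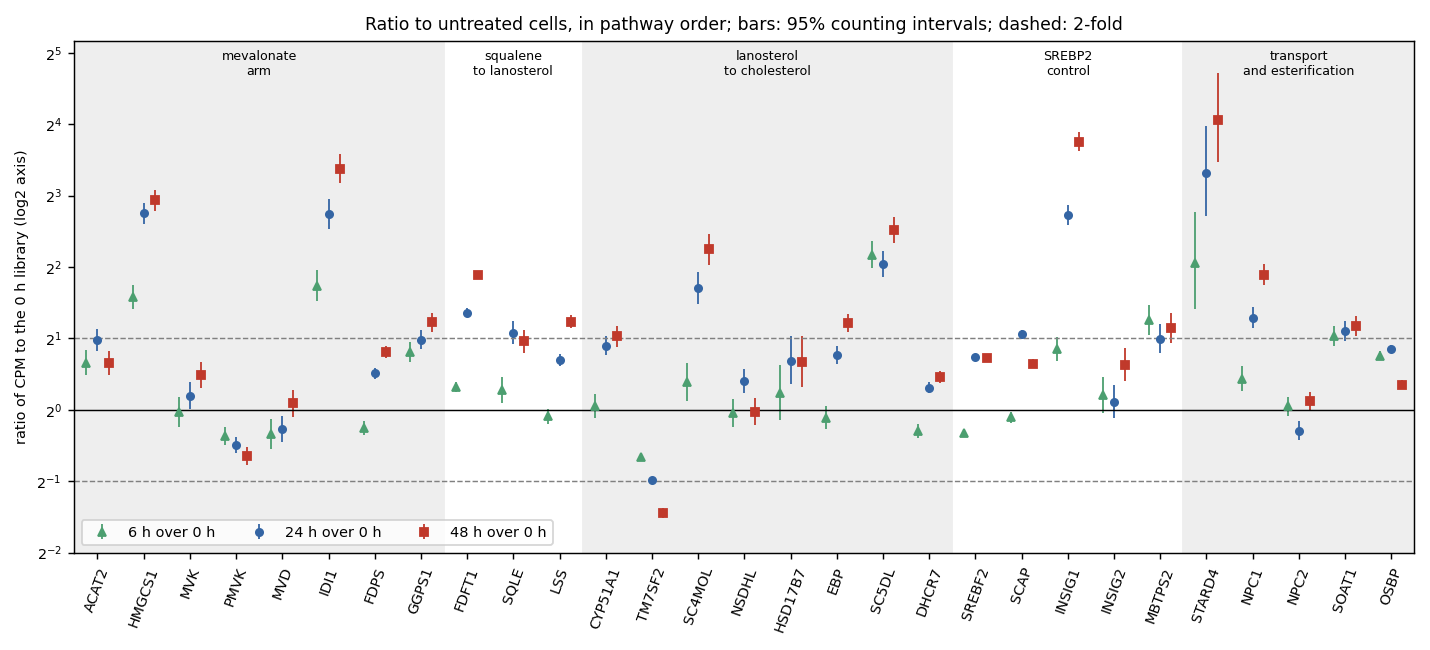
Ratio of each gene's CPM at 6 h (triangles), 24 h (circles) and 48 h (squares) to the 0 h library on a log2 axis, genes in pathway order, with bars for 95% counting intervals and dashed lines at 2-fold. STARD4, INSIG1, IDI1 and HMGCS1 reach the highest ratios, 7.63 to 16.8 at 48 h, and TM7SF2 has the lowest, 0.368.

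After lanosterol the genes went different ways. At 48 h 4 of 8 had risen, 1 had fallen and 3 were within 2-fold. Of all genes 15.03% were higher and 7.33% lower at 48 h. SC5DL, the desaturase near the end of the pathway, read 20.9, 22.6, 94.4, 79.2, 86.2 and 120 CPM. It was the enzyme with the highest 6 h ratio, 4.51 (3.95 to 5.15), and stood at 5.72 (5.04 to 6.52) at 48 h. SC4MOL, the oxidase that starts removal of the methyl groups at carbon 4, read 15.9, 13.8, 20.7, 51.6 and 75.3 CPM at 0, 3, 6, 24 and 48 h. Its ratio was 3.26 (2.80 to 3.79) at 24 h and 4.75 (4.09 to 5.53) at 48 h, and unlike SC5DL it was still within 2-fold at 6 h. With the trend on GC content over all genes subtracted, its log2 change was 0.94 at 24 h, within 2-fold, and 1.13 at 48 h.

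EBP, the sterol isomerase, read 52.8, 74.6, 48.99, 76.3, 90.0 and 123 CPM, 2.32 (2.13 to 2.54) at 48 h. The lanosterol demethylase CYP51A1 read 43.5, 37.5, 45.3, 71.7, 81.2 and 88.7 CPM, 2.04 (1.85 to 2.25) at 48 h. Both passed 2-fold in the last library alone, and the interval of CYP51A1 spans 2. At 24 h CYP51A1 was past 2-fold with TMM scaling. EBP was past it at 24 h with the trend on GC content over all genes subtracted (log2 change 1.05).

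TM7SF2, a sterol reductase that acts just after CYP51A1, was the gene of the 29 that fell. It read 468, 539, 295, 301, 236 and 172 CPM, with ratios of 0.504 (0.485 to 0.523) at 24 h and 0.368 (0.351 to 0.385) at 48 h. Both early libraries lay above all later ones, and the 48 h library was the lowest. Its transcript has a GC content of 62.0%. With the trend of change on GC content over all genes subtracted, its 48 h log2 change went from -1.44 to -0.96, within 2-fold. The lamin B receptor, which shares the reductase activity, was not among the genes examined.

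The other 3 genes after lanosterol did not pass 2-fold. DHCR7, which makes cholesterol from 7-dehydrocholesterol, read 144, 169, 117, 170, 178 and 198 CPM. NSDHL, the dehydrogenase that removes those methyl groups, read 33.8, 40.5, 32.8, 41.7, 44.6 and 33.1 CPM, back at the 0 h level by 48 h (0.980). HSD17B7, the ketoreductase of the same step, read 7.89, 9.78, 9.32, 12.4, 12.7 and 12.6 CPM. CYP51A1 and HSD17B7 have pseudogenes that may take or give reads.

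**Figure D3:**
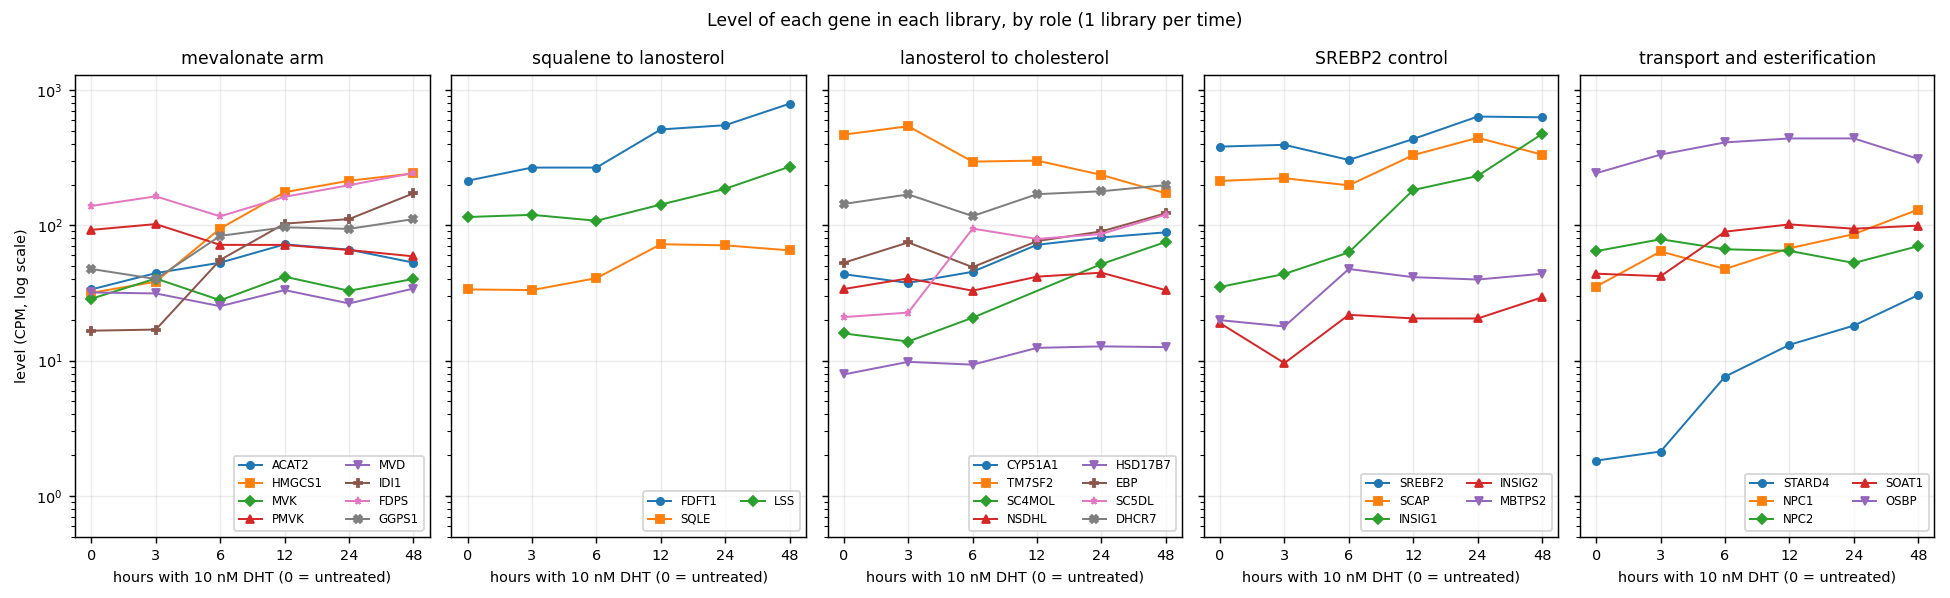
Level in CPM (log axis) of each of the 29 genes in each library by hours with DHT, in a panel for each role, with SC4MOL drawn without a 12 h point. STARD4 climbs from 1.82 to 30.5 CPM and INSIG1 from 34.98 to 473, while TM7SF2 goes from 468 to 172.

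Among the genes of SREBP2 control INSIG1 had the highest ratios at 12, 24 and 48 h. INSIG1, itself a known SREBP target that restrains the pathway, read 34.98, 43.6, 63.0, 182, 231 and 473 CPM, more in each library than in the one before. Its ratio was 6.61 (6.01 to 7.29) at 24 h and 13.5 (12.3 to 14.9) at 48 h. It was the single gene of the 29 to pass 2-fold from 6 to 12 h, when 0.468% of genes did, and from 24 to 48 h, when 1.53% did. From 24 to 48 h none of the 29 passed with TMM or median-of-ratios scaling, and from 6 to 12 h 3 passed with the GC trend subtracted. Shares over all genes were not taken for these steps in those forms. By size of change it was gene 26 from the top of 11916 at 48 h. INSIG2, which binds the same escort protein, read 18.9, 9.57, 21.8, 20.5, 20.4 and 29.3 CPM. It was low at 3 h, with 0.506 (0.408 to 0.627), and at 1.55 (1.33 to 1.82) at 48 h, so it passed 2-fold at no time.

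SREBF2 read 381, 393, 304, 434, 636 and 628 CPM, 1.67 (1.61 to 1.72) at 24 h, and passed 2-fold against 0 h at no time. SCAP, the escort, read 213, 223, 197, 330, 443 and 333 CPM. It stood at 2.08 (1.996 to 2.17) at 24 h and was lower again at 48 h, at 0.752 (0.726 to 0.778) of the 24 h level. SREBF2 and SCAP thus both had their lowest CPM at 6 h and their highest at 24 h. The 48 h level of SREBF2 was 0.988 (0.962 to 1.014) of that at 24 h, an interval that spans 1. With the trend on GC content over all genes subtracted, the 6 h log2 changes were 0.03 for SREBF2 and 0.41 for SCAP. In that form neither was below its 0 h level at 6 h. MBTPS2, the second of the proteases, read 19.9, 17.9, 47.5, 41.3, 39.7 and 43.8 CPM, 2.20 (1.91 to 2.55) at 48 h. A row without a symbol, defined as a site-1 membrane-bound transcription factor enzyme, read 107, 98.6, 117, 110, 96.9 and 82.7 CPM. It lies outside the rule for members, and its accession was not matched to MBTPS1.

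In sterol transport, 3 of 5 genes had risen at 24 and at 48 h, against 10.5 and 15.03% of all genes. STARD4, a soluble carrier that moves cholesterol between membranes, read 1.82, 2.13, 7.61, 13.1, 18.1 and 30.5 CPM, from 24 counts at 0 h to 459 at 48 h. Its ratio was 9.95 (6.58 to 15.7) at 24 h and 16.8 (11.1 to 26.4) at 48 h, the highest CPM ratios of the 29 genes, with wide intervals that overlap those of INSIG1. On the log2(CPM + 1) scale it stood below INSIG1 at 48 h (3.48 against 3.72). With the GC trend subtracted it stood at 1.79 at 24 h, below INSIG1 (2.63), HMGCS1 (2.16) and IDI1 (2.08). In this form it stood at 1.95 at 48 h, below INSIG1 (3.63), IDI1 (2.47), HMGCS1 (2.11), NPC1 (2.07) and FDFT1 (1.97). NPC1, the membrane protein that exports lipoprotein cholesterol from lysosomes, read 35.2, 64.0, 47.5, 67.6, 86.0 and 131 CPM. It had the highest ratio of the 29 at 3 h, 1.82 (1.62 to 2.04), dipped at 6 h and reached 3.71 (3.35 to 4.12) at 48 h. NPC2, its soluble partner, read 64.3, 78.8, 66.4, 64.6, 52.6 and 70.1 CPM and never passed 2-fold.

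SOAT1, which esterifies cholesterol for storage, read 43.9, 42.0, 89.6, 101, 94.3 and 99.4 CPM, level from 6 h on, with 2.27 (2.06 to 2.50) at 48 h. The oxysterol-binding protein OSBP read 242, 333, 410, 438, 438 and 309 CPM. It stood at 1.81 (1.74 to 1.88) at 24 h, and its 48 h level was 0.706 (0.681 to 0.731) of that at 24 h. Of the 29 genes, 16 had their highest level at 48 h. From 24 to 48 h the interval of the ratio lay above 1 in 18 and below 1 in 7 (ACAT2, NSDHL, OSBP, PMVK, SCAP, SQLE and TM7SF2). By sign alone 20 of the 29 were higher at 48 h than at 24 h and 9 lower, against 7135 and 4781 of all 11916 measured genes. The median log2 changes of this step were 0.24 and 0.08. Neither the interval counts nor the times of highest level were taken over all genes.

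Summed levels weigh each gene by its counts, so that single genes can lead the sum of a group. The 18 enzymes other than SC4MOL summed to 1553, 1789, 1585, 2232, 2341 and 2828 CPM, a 48 h ratio of 1.82 (1.79 to 1.85). The mevalonate arm went from 421 to 954 CPM at 48 h (2.27), and the squalene genes from 362 to 1128 CPM (3.11). Of the squalene genes FDFT1 alone went from 213 to 791 CPM. The 7 genes after lanosterol went from 770 to 747 CPM (0.970), a sum in which TM7SF2 was the largest part at 0 h. Without TM7SF2 the other 17 enzymes had a 48 h ratio of 2.45 (2.40 to 2.49). The 5 control genes went from 668 to 1507 CPM (2.26), and the 5 transport genes from 388 to 689 CPM at 24 h and 640 CPM at 48 h. Among the control genes INSIG1 went from 34.98 to 473 CPM and SREBF2 from 381 to 628 CPM at 48 h.

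**Figure D4:**
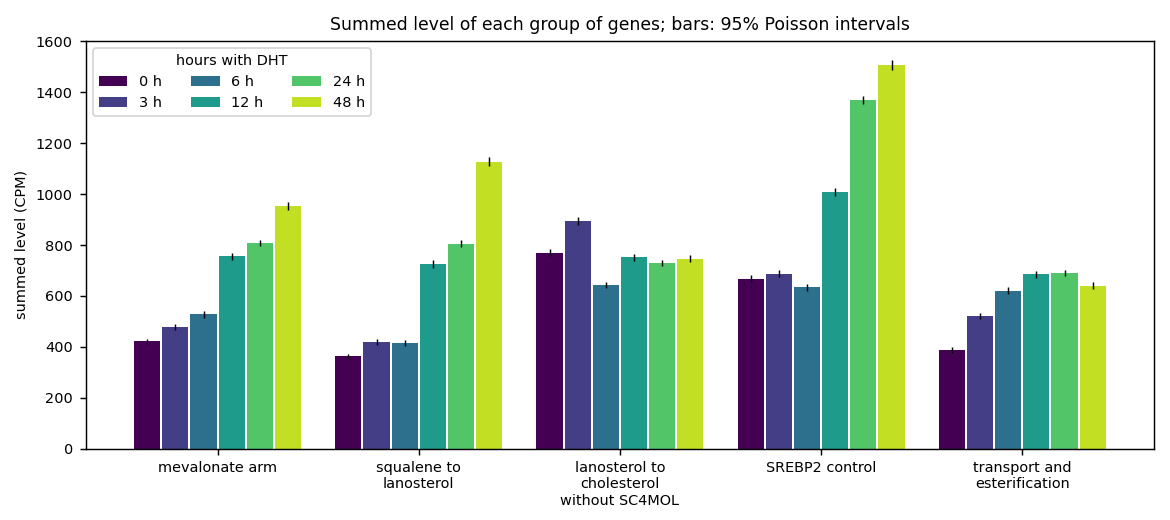
Summed CPM of each group of genes in each library by hours with DHT, with 95% Poisson intervals and bars from 0. The squalene genes (362 to 1128 CPM) and the control genes (668 to 1507 CPM) gain most from 0 to 48 h, and the genes after lanosterol end at 747 CPM, close to their 770 CPM at 0 h.

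Levels per transcript length, in RPKM, allow a comparison between genes. At 0 h TM7SF2 was the most abundant of the 29, with 272 RPKM, followed by FDFT1 with 98.1, FDPS with 97.0, SREBF2 with 72.8 and PMVK with 72.2 RPKM. FDFT1 and FDPS, like SREBF2 and PMVK, were closer than their counting intervals. STARD4 was the least abundant, with 0.395 RPKM. At 48 h the order was FDFT1 with 364, FDPS with 170, INSIG1 with 157, SREBF2 with 120 and TM7SF2 with 99.8 RPKM. INSIG1 had moved up from 11.6 RPKM. STARD4 was still the least abundant, with 6.62 RPKM despite the highest CPM ratio.

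The course of the genes was also followed without the 0 h library. From 3 to 6 h 8 of 29 were at least 2-fold higher and 0 lower, against 20.9 and 1.40% of all genes. From 6 to 12 h 1 was higher and 0 lower, against 0.468 and 2.36%. From 6 to 24 h 7 were higher (HMGCS1, FDFT1, SC4MOL, SREBF2, SCAP, INSIG1 and STARD4), against 1.60% of all genes, and 0 lower, against 6.29%. From 12 to 24 h none passed 2-fold, against 1.88 and 2.03%, and from 24 to 48 h 1 was higher and 0 lower, against 1.53 and 0.185%. SREBF2 went up 2.09-fold (2.02 to 2.17) from 6 to 24 h and SCAP 2.24-fold (2.15 to 2.35). The genes that had first passed 2-fold by 6 h were HMGCS1, IDI1, MBTPS2, SC5DL, SOAT1 and STARD4. ACAT2, FDFT1, GGPS1, INSIG1 and SQLE followed at 12 h, NPC1 and SCAP at 24 h, and CYP51A1, EBP and LSS at 48 h. SC4MOL had passed by 24 h, and whether it had by 12 h is not known because that value is not used. This order depended on the form used. With TMM scaling SOAT1 first passed at 12 h, and GGPS1 and CYP51A1 at 24 h. With the GC trend subtracted SC5DL alone had risen at 6 h, and HMGCS1, IDI1 and STARD4 had by 12 h. SCAP had passed at 12 h in that form (log2 change 1.05), while SQLE had not (0.87). EBP and LSS passed at 24 h, and SC4MOL was past 2-fold at 48 h but not at 24 h. MBTPS2, SOAT1, GGPS1 and CYP51A1 then passed at no time.

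GC content of the transcripts moved with the changes. Across all genes the log2 change had a Pearson r with GC content of 0.232 at 3 h, -0.740 at 6 h, -0.552 at 12 h, -0.516 at 24 h and -0.560 at 48 h. Across the 29 genes r was 0.391, -0.784, -0.692 (28 genes), -0.660 and -0.645. Genes of 1 library share its depth and base composition and are not independent replicates. The 29 genes ran from 34.2% GC in STARD4 to 65.6% in MVD, with a median of 49.2%, and 49.4% over all genes. The 6 genes that rose at 6 h had 34.2 to 40.1% GC, and GGPS1, INSIG2 and SC4MOL, which had not risen, 36.9 to 40.2%.

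With the GC trend subtracted, 1 of the 29 was higher (SC5DL) and 1 lower (INSIG2) at 6 h, against 3.79 and 1.56% of genes with a GC value. INSIG2 went from 0.20 to -1.01 and so turned direction. At 3 h none passed 2-fold, against 0.935 and 0.424%. At 12 h 8 of 28 were higher and 0 lower, against 4.14 and 4.33%. At 24 h 13 were higher and 0 lower, against 7.08 and 6.52%, and at 48 h again 13 and 0, against 7.20 and 4.84%. HMGCS1, IDI1, FDFT1, INSIG1, STARD4, NPC1 and SC5DL were past 2-fold at 24 and 48 h in both forms. SCAP went from 1.06 to 1.64 at 24 h and SREBF2 from 0.74 to 1.20, while SOAT1 went from 1.09 to 0.48 and MBTPS2 from 0.96 to 0.38. At 48 h 4 genes that had risen were within 2-fold in this form: CYP51A1 at 0.42, GGPS1 at 0.44, MBTPS2 at 0.28 and SOAT1 at 0.30. From 6 to 24 h 12 genes were higher and 0 lower in this form, against 2.86 and 3.15%, and from 3 to 6 h none passed 2-fold, against 4.12 and 1.69%. The part of GC content in each single change was not tested.

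**Figure D5:**
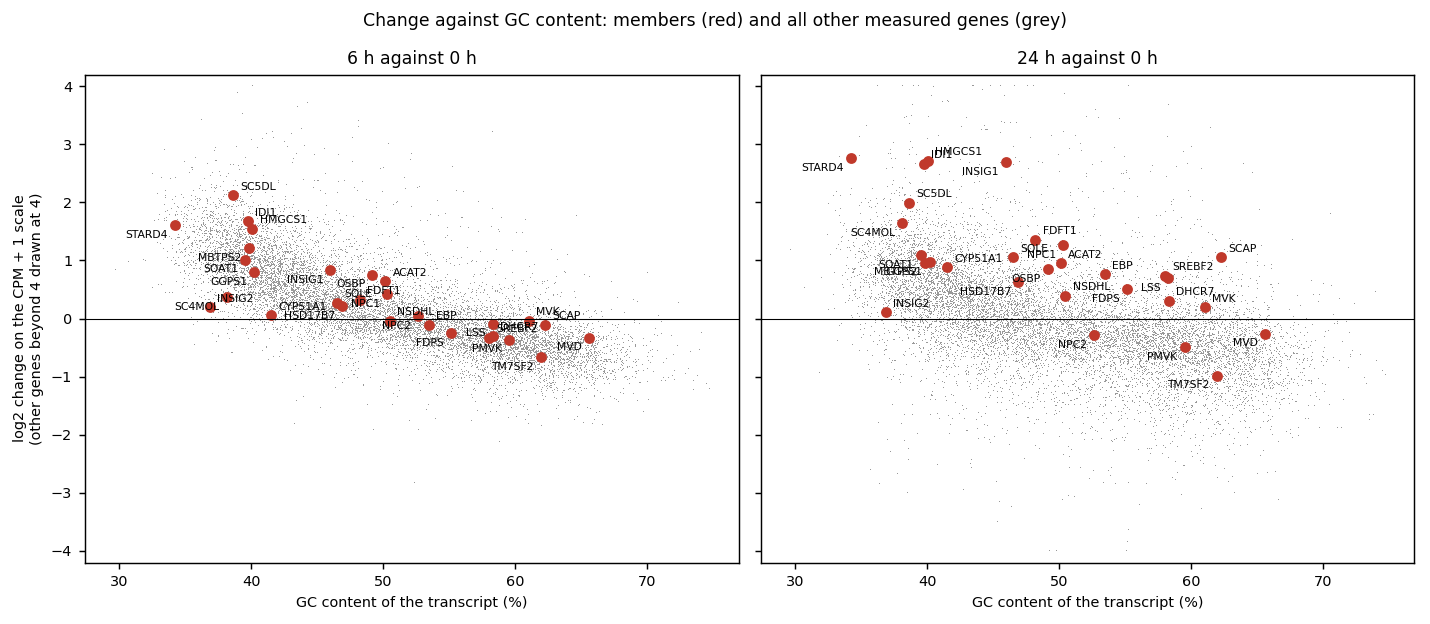
Log2 change on the CPM + 1 scale against transcript GC content (%) at 6 h (left) and 24 h (right) for the 29 genes (red, named) and all other measured genes (grey). At 6 h the red points follow the slope of the grey cloud (r = -0.784 and -0.740), and at 24 h INSIG1, HMGCS1, IDI1, STARD4 and SCAP lie above it.

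Other branches of the pathway also draw on mevalonate. Of 20 measured genes of dolichol, ubiquinone and prenyl transfer, 1 was higher at 24 h and 2 at 48 h, and none was lower, against 10.5 and 15.03% of all genes higher and 10.8 and 7.33% lower, with medians of -0.16 and -0.20. NUS1, a subunit of the enzyme that builds dolichol chains, had log2 changes of 1.16 and 1.37 at 24 and 48 h from 8.12 CPM at 0 h. PGGT1B, a geranylgeranyl transferase subunit, had 0.85 and 1.11. SRD5A3, which takes part in dolichol synthesis, had -0.69 and -0.58, and COQ3, a ubiquinone methyltransferase, -0.55 and -0.59. With the GC trend subtracted NUS1 had 0.44 and 0.30 and PGGT1B -0.14 and -0.46, so that neither passed 2-fold and PGGT1B turned direction. SRD5A3 then had -0.89 and -0.84 and COQ3 -0.92 and -1.08. No difference between the lists and the 29 genes was tested.

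Of 16 other regulators of sterol sensing and SREBP turnover, 2 were higher at 24 h and 3 at 48 h, and none was lower, with medians of 0.31 and 0.42. These shares stand near the 10.5 and 15.03% of all genes. SEC24A, a coat protein that loads cargo for the Golgi, read 36.8, 25.8, 76.9, 103, 127 and 126 CPM, and its partner SEC23A had log2 changes of 1.03 and 1.24 at 24 and 48 h. SEC24C, of the same coat, had 0.85 and 0.38, and PAQR3, a Golgi anchor of SCAP on chromosome 4, 0.81 and 1.27. With the GC trend subtracted the 24 and 48 h values were 1.11 and 0.81 for SEC24A, 0.61 and 0.67 for SEC23A, 1.14 and 0.71 for SEC24C, and -0.12 and -0.18 for PAQR3, whose direction turned.

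Of 22 measured genes of other sterol transport, lipoprotein uptake and storage (27 listed), 3 were higher and 2 lower at 24 h, and 4 and 1 at 48 h, with medians of 0.06 and 0.21. The shares higher stand near those of all genes, 10.5 and 15.03%, and the shares lower were 10.8 and 7.33% over all genes. The lipoprotein receptor VLDLR read 18.7, 17.2, 48.3, 53.9, 80.6 and 79.0 CPM and rose, while LRP1, another receptor of its family, read 295, 233, 140, 108, 104 and 137 CPM and fell. OSBPL8, a lipid exchange protein, had 1.34 and 2.24 at 24 and 48 h, STARD3NL 1.24 and 1.39, and the cholesterol transporter GRAMD1A -1.27 and -0.76. With the GC trend subtracted VLDLR was still past 2-fold at both times, with 2.02 and 1.98, and STARD3NL at 48 h, with 0.96 and 1.02. LRP1 with -0.98 and -0.63, OSBPL8 with 0.46 and 0.86 and GRAMD1A with -0.64 and -0.26 were not.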

How the data were processed

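RNA was sequenced in 6 LNCaP libraries (Illumina GAIIx, per the labels' protocols). Per the submitters' processing notes the build was hg19. Aligner, counting tool and strand use were not given in the sources used here. Deposited columns hold, per the file headers, tag counts per RefSeq transcript and the same counts as RPM (ppm) scaled by the authors. The counts were analysed, and the RPM gave an alternative denominator. Of 18051 lines 50 exact repeats were removed, and 18001 transcripts were summed to 17990 genes. Listed transcripts held 86.9 to 89.5% of the deposited denominators. A count of 0 allows up to 3 counts, 0.146 to 0.228 CPM. No molecular identifiers are named, so intervals (exact Poisson for levels, exact conditional binomial for ratios) cover counting error only.

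Changes are log2((CPM + 1) over (CPM + 1) at 0 h), which understates low genes. With 1 library per group the 2-fold rule is one of size, not a test. GC content and length came from GENCODE 29 transcripts matched by RefSeq accession, for 95.1% of measured genes and all 29 members. The GC trend was a lowess curve (span 0.3, statsmodels 0.14.6). Promoters came from RefSeq (GRCh38.p14), and their coordinates are not those of the counts' build. TMM factors came from edgeR 4.0.16 and median-of-ratios factors from DESeq2 1.42.0. Scripts were tested on simulated data.

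Members and lists were chosen with earlier results of these data known. All found members are named, and of each other list up to 4 genes with the largest change at 24 h, plus any past 2-fold in every library from 12 h on. SC4MOL at 12 h was left out with chromosome 4.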

Additional observations from a re-analysis of the deposited data

How the results depend on the processing

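No paired analysis was possible because each group had 1 library. For the same reason no library could be left out of a group. Counts below are of genes past 2-fold unless another size is named. With TMM or median-of-ratios scaling alike, from 3 to 6 h 5 genes were higher and 1 lower, from 6 to 24 h 11 were higher and from 24 to 48 h 0. The summed ratio of the 18 enzymes was 1.22, 0.975, 1.66 and 1.90 at 3, 6, 24 and 48 h with TMM, and 1.19, 0.949, 1.38, 1.61 and 1.87 at 3, 6, 12, 24 and 48 h with median-of-ratios scaling. With the deposited denominator it was 1.001 at 6 h. At a pseudocount of 5 CPM 5 genes were higher from 3 to 6 h. With the GC trend subtracted, 1 gene was higher and 1 lower at 6 h, 0 lower at 48 h, and 0, 3 and 12 were higher from 3 to 6 h, 6 to 12 h and 6 to 24 h. For these steps 4.12% of all genes were higher from 3 to 6 h and 2.86% from 6 to 24 h. Shares over all genes were not taken for the GC step from 6 to 12 h. Nor were they taken for steps with the other scalings or the pseudocount of 5 CPM. A step count without such a share cannot be set against all genes.

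A 1.5-fold rule gave 1 higher and 1 lower at 3 h, 10 and 1 at 6 h, and 16 and 1 of 28 at 12 h. It gave 20 and 1 at 24 h and 21 and 2 at 48 h. Of all genes 2.52% were then higher and 8.13% lower at 3 h, and 28.5 and 13.4% at 6 h. At 12 h 25.3% were higher and 14.7% lower, at 24 h 21.6 and 24.2%, and at 48 h 25.4 and 22.0%. By step the 1.5-fold rule gave 2 lower from 3 to 6 h, and 9, 15 and 4 higher from 6 to 12, 6 to 24 and 24 to 48 h. A 3-fold rule gave 3, 5, 6 and 8 higher at 6, 12, 24 and 48 h, against 4.72, 2.89, 3.45 and 6.14% of all genes. It gave 0 lower at 48 h, against 1.49%. By step it gave 2, 0, 1 and 0 higher from 3 to 6, 6 to 12, 6 to 24 and 24 to 48 h. Shares over all genes were not taken for the steps of either rule, so these step counts cannot be set against all genes. The counts of both rules follow from the size asked for, and the cause of the other shifts was not tested. Among the 29 genes no change against 0 h past 2-fold took the other sign under these settings. INSIG2 at 6 h, 0.20 and not past 2-fold, was -1.01 with the GC trend subtracted. Outside the 29, PGGT1B at 48 h went from 1.11 to -0.46 and PAQR3 from 1.27 to -0.18 in that form. Of the changes of single genes, the GC trend left 41 within their interval on the same side of 2-fold, moved 79 further, took 16 below 2-fold and 8 past it. The same counts were 118, 19, 3 and 4 with TMM and 121, 17, 3 and 3 with median-of-ratios scaling. Depth limits STARD4 most, with 24 counts at 0 h.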
